A study of Mus musculus with 48 samples.

Results

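The genes described here are those of a pair of splicing factor families, the heterogeneous nuclear ribonucleoproteins (symbols beginning with Hnrnp) and the serine- and arginine-rich splicing factors (symbols of the form Srsf followed by a number). Matching these symbols in the deposited tables found 33 of 54331 genes, of which 22 were Hnrnp genes and 11 were Srsf genes. Of the Hnrnp genes 20 code for proteins and 2 are processed pseudogenes, and all 20 coding Hnrnp genes and all 11 Srsf genes passed the filter on low counts in every comparison. The pseudogenes were never tested after that filter, since Hnrnpa1l2-ps was above 0 TPM in 5 of 48 libraries and Hnrnpa1l2-ps2 in 3.

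The 48 mouse libraries profile polyadenylated RNA captured from cells of the eye and from brain targets of retinal ganglion cells (RGC). The targets sampled here are the lateral geniculate nucleus (LGN) and the superior colliculus (SC). Captures there are aimed at RNA of RGC axons, and whether each RNA came from axons was not tested. Axon-TRAP captures RNA on tagged ribosomes, and EU libraries hold RNA pulled down through ethynyl uridine that had been injected into the vitreous of the eye. Libraries labelled fmr1ko, all P14, were SC axon-TRAP, SC EU and eye FACS (n = 3 each), and the axotomized sarm1ko SC EU libraries were labelled P14 with a 7-day chase (n = 3). Wild-type SC gave axon-TRAP libraries at P10 (n = 3) and P14 (n = 5) and EU libraries at P10 (n = 3), P14 (n = 5), 8 weeks (n = 3) and P10 with a 4-day chase (n = 3), and wild-type LGN at P14 gave 3 axon-TRAP and 2 EU libraries. Wild-type eyes at P14 gave immunopanned RGC with EU capture (n = 3), immunopanned RGC without it (n = 3) and FACS-sorted cells (n = 3). Per the protocol in the labels, each EU dissection pooled the colliculi of 3 animals. The driver of the ribosome tag is not given in the sources used here.

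Proteins of both families bind nascent and mature RNA. SR proteins mostly bind exonic enhancers and help the spliceosome to recognise an exon, while hnRNPs often bind silencers or introns and compete with them. Many members of both families shuttle between nucleus and cytoplasm, where hnRNPs such as A2/B1, K and R are known for their part in the transport, stability and translation of mRNA in neurites. Many genes of both families limit their own output through exons that send the transcript to nonsense-mediated decay.

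The GENCODE annotation on GRCm38 lists such transcripts for many members. A transcript marked for nonsense-mediated decay was listed for 10 of 20 coding Hnrnp genes (50.0%) and 9 of 11 Srsf genes (81.8%), and for 20.8% of all 22028 coding genes. A retained-intron transcript was listed for 14 of 20 (70.0%), 8 of 11 (72.7%) and 41.4%. The tables give 1 value a gene, so these forms are summed with the productive mRNA. Hnrnpa0, a binder of AU-rich elements, lies on chromosome 13 at 58125879 to 58128556 of the minus strand, with 1 transcript whose exons cover the whole gene span of 2678 bases. Several members overlap a named gene on the other strand, among them Srsf2 (with Mettl23 and Mfsd11), Hnrnpu (Cox20), Hnrnpab (Phykpl) and Hnrnph3 (Rufy2). Whether the counting used strand is not given in the sources used here, so reads of these pairs may have been shared.

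To show what the promoters of members that differed between the capture methods look like, the 150 bases before the RefSeq start on GRCm38.p6 were read for 6 genes. Hnrnpa0, Hnrnpa1, Hnrnpf and Hnrnpk were called higher (adjusted p under 0.05) in TRAP than in EU libraries of SC at both ages, and Hnrnpul1 and Srsf11 were called lower at P14. Capitals mark a CCAAT box (CCAAT, or ATTGG on the other strand) or a GC box (GGGCGG, or CCGCCC on the other strand). Each motif was counted on its own, and none was required to stand clear of another.
Hnrnpa0, chr13:58128557-58128706, minus strand: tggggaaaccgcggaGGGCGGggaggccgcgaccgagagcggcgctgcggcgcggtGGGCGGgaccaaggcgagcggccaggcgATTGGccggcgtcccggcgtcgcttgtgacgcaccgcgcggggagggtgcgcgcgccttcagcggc
Hnrnpa1, chr15:103240247-103240396, plus strand: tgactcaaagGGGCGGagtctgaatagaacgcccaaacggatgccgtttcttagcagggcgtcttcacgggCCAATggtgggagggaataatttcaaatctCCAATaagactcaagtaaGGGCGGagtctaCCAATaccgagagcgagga
Hnrnpf, chr6:117900190-117900339, plus strand: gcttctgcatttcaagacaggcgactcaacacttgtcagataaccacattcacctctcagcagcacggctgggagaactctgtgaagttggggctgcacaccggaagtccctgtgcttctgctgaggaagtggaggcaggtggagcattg
Hnrnpk, chr13:58402118-58402267, minus strand: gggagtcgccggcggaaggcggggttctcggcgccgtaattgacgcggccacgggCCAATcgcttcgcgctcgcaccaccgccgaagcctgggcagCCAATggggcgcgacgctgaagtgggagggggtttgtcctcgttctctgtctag
Hnrnpul1, chr7:25754760-25754909, minus strand: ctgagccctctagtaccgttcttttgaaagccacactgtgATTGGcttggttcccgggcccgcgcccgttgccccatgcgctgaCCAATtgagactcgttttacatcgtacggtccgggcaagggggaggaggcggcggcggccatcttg
Srsf11, chr3:158036607-158036756, minus strand: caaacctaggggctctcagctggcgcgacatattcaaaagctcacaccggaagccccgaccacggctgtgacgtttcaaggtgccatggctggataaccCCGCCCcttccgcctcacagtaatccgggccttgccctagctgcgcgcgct

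Where a gene has several listed starts, the window shown is that of the start nearest to its annotated gene start. For Hnrnpf, with 4 listed starts, this window holds neither motif, while CCAAT and GC boxes were found in windows of its other listed starts. Among the 27 RefSeq starts of the 18 Hnrnp genes matched in the promoter table, 15 (55.6%) had a CCAAT box in this window, and among the 14 starts of the 11 Srsf genes 3 (21.4%) did, beside 24.5% of all 32851 promoters. The GC box was in 55.6% of Hnrnp starts, 92.9% of Srsf starts and 28.6% of all promoters. The ETS core CGGAAG, which reads on the other strand as CTTCCG, was in 14.8%, 28.6% and 10.4%, and TATAAA, which reads on the other strand as TTTATA, in 0.0%, 14.3% and 7.6%. These matches describe letters in a window and were not tested against the libraries.

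Libraries held 2558141 to 48263706 counts, with a median of 22212787. The wild-type P14 SC groups join 2 series of title codes: replicates 1 and 2 share theirs with the LGN libraries, and replicates 3 to 5 with the other SC groups, so replicates 3 to 5 were used in the comparisons within SC. EU libraries 1 and 2 of P14 SC were also shallow, with 2558141 and 6034159 counts, as were the LGN EU libraries, with 5908398 and 6322911 counts. Within the knockout labels, Sarm1 averaged 3.05 ± 0.376 CPM in sarm1ko and 27.2 ± 13.0 CPM in wild-type SC EU libraries (SD, n = 3 each; log2 difference -3.15, adjusted p = 0.00229). Fmr1 did not pass the test in any kind of library labelled fmr1ko: the log2 differences were 3.07 in EU, -0.24 in TRAP and -0.62 in FACS libraries, with adjusted p of 0.0686, 0.966 and 0.884. The second fmr1ko TRAP library of SC stands apart, with 128700 CPM of summed rod markers and 33.9 CPM of oligodendrocyte markers, where the other SC libraries had 0.848 to 109.6 and 1814 to 28960 CPM. Its values are close to those of FACS-sorted eye cells, at 97310 to 170300 and 27.3 to 193 CPM. The other 2 fmr1ko TRAP libraries had 9976 and 11470 CPM of summed nuclear long noncoding RNAs, against 24.4 to 180 CPM in wild-type P14 SC TRAP libraries, which places them within the 3941 to 33110 CPM of the SC EU libraries. Immunopanned EU libraries contained 7769 to 122600 CPM of rod markers, and FACS libraries, labelled Eye, held RGC markers at only 39.8 to 153 CPM, with Rbpms, Pou4f3, Sncg and Slc17a6 at 0 in every fmr1ko one. Wild-type P14 SC TRAP libraries held 7890 to 29000 CPM of summed oligodendrocyte markers and 2360 to 6610 CPM of astrocyte markers. Wild-type P14 SC EU libraries held 8820 to 16700 and 2960 to 6370 CPM, so neither kind held RNA of RGC axons alone. Immunopanned libraries without EU capture are described by level only.

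On the per-length scale of TPM, Hnrnpk, a poly-C binding protein, had the highest mean over the 15 group means, 241 TPM. Its lowest, median and highest libraries were at 17.2, 208.5 and 789 TPM. Hnrnpa1, a classic splicing repressor, followed at 216 TPM (6.94, 171 and 1490 TPM in its lowest, median and highest library), and Hnrnpa2b1, which binds RNA trafficking elements, at 177 TPM (4.44, 126.5 and 461 TPM). Each of these ranges spans more than the difference between neighbours in the order, so the order is of means only. Hnrnph1 (175 TPM) and Hnrnpf (146 TPM), related proteins that bind G tracts, came next, and Hnrnpll had the lowest mean of the coding Hnrnp genes, at 6.71 TPM.

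Among the Srsf genes Srsf11, a U2AF-associated SR protein, averaged 161 TPM, with 3.69, 129 and 461 TPM in its lowest, median and highest library. Srsf2, an SR protein that stays largely in the nucleus, averaged 111 TPM (0.94, 68.8 and 486 TPM), and Srsf5 64.3 TPM (1.34, 48 and 259 TPM). Srsf10 at 11.5 TPM and Srsf12 at 9.14 TPM were the lowest. The first immunopanned library without EU capture gave the lowest value for all of these Srsf genes but Srsf10 and Srsf12, and its Hnrnp sum was 80.0 TPM, the lowest of the 48. In that group the summed lens markers reached 163731 CPM and mitochondrial genes took 42.3% and 47.3% of replicates 3 and 2.

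The balance between the families did not overlap between TRAP and EU libraries of the same age in wild-type SC at P10 or P14. It overlapped in LGN and in the SC libraries labelled fmr1ko. Summed over the family, Hnrnp genes gave 2142, 1285, 2113, 1989 and 2466 TPM in the 5 wild-type P14 SC TRAP libraries, against 3258, 2064, 875, 626 and 1108 TPM in the 5 EU libraries. The EU sums of libraries 1 and 2 lie within or above the TRAP range, and those of libraries 3 to 5 lie below it. At P10 the sums were 1716, 1304 and 2191 TPM in TRAP libraries and 892, 917 and 1106 TPM in EU libraries, which do not overlap. The Srsf sum ran from 18.1% to 25.3% of the Hnrnp sum in P14 SC TRAP libraries, against 31.3% to 113% in the EU libraries, and from 14.9% to 32.3% in P10 SC TRAP libraries, against 57.9% to 87.8%. In every wild-type SC TRAP library at P14 the ratio was thus below that of every wild-type P14 SC EU library, in both title-code series. Across ages the ratios overlapped, since P10 TRAP library 2 (32.3%) was above P14 EU library 1 (31.3%). The SC EU libraries of 8 weeks had 30.9% to 44.6%. In LGN it was 46.7%, 24.7% and 29.3% in TRAP and 32.5% and 40.1% in EU libraries. In the SC libraries labelled fmr1ko it was 36.4%, 24.6% and 46.6% in TRAP and 34.9%, 21.0% and 40.3% in EU libraries. In immunopanned EU libraries the ratio was 26.7% to 39.5%, and in wild-type FACS libraries 28.6% to 29.0%. Srsf11 made up much of the EU side, at 173 to 384 TPM in P14 SC EU libraries against 57.5 to 149 TPM in the TRAP libraries.

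**Figure D1:**
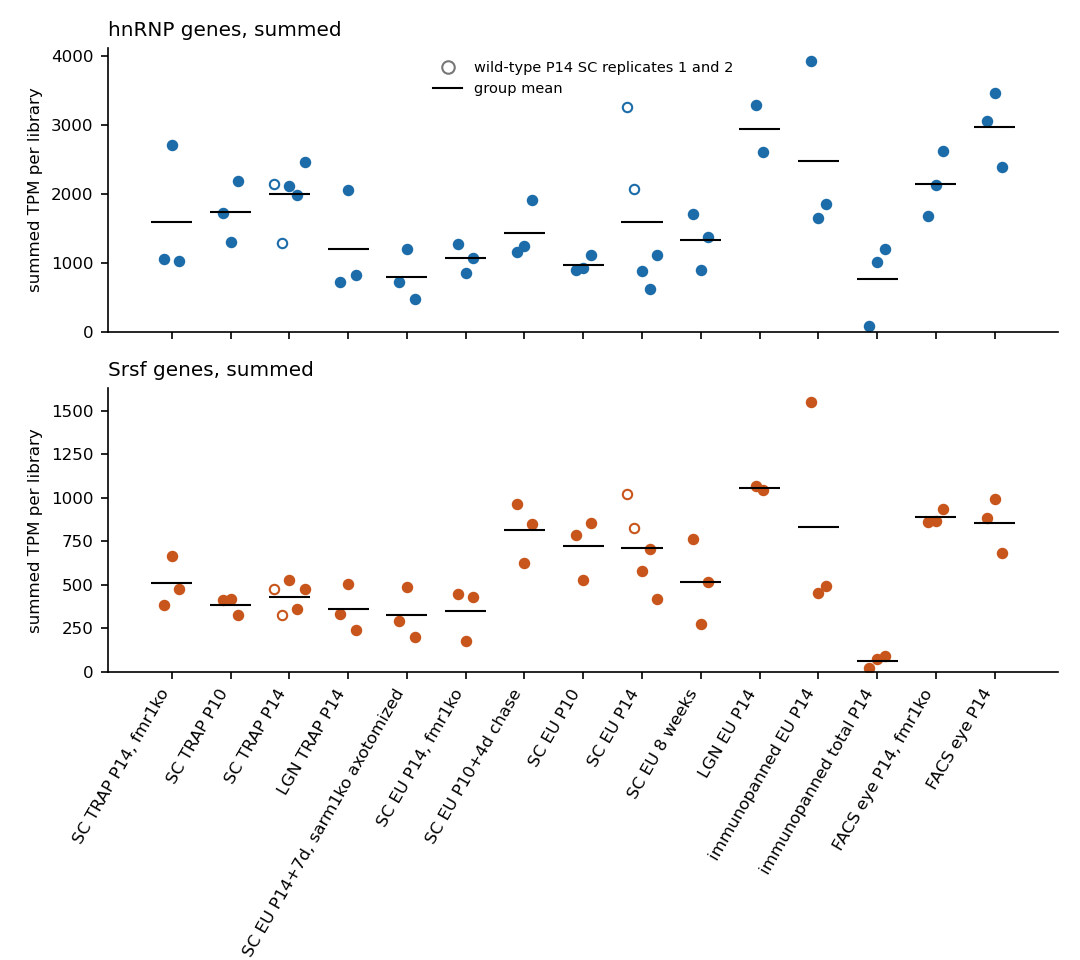
Summed TPM of the Hnrnp genes, pseudogenes included, and of the Srsf genes in each library, by group, with a line at each group mean and open circles for replicates 1 and 2 of the wild-type P14 SC groups. Hnrnp sums of P14 SC EU libraries 3 to 5 (626 to 1108 TPM) lie below those of the TRAP libraries (1285 to 2466 TPM), while EU library 1 reaches 3258 TPM.

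The first comparison asks which RNAs of SC are found on the tagged ribosomes relative to the EU-labelled pool, at P14. Levels in the comparisons are CPM scaled by TMM factors (library scaling factors), fitted for each comparison, so a library's value shifts slightly between comparisons, and fold changes are log2 values with their SE. Of 20 Hnrnp genes 7 were called higher in TRAP and 1 lower at an adjusted p under 0.05 (edgeR quasi-likelihood F test, n = 3 each), with a median log2 difference of 1.35. Of 11 Srsf genes 0 were called higher and 1 lower, with a median of -0.16. Over all 16277 genes tested 5.73% were called higher, 8.64% lower and 14.4% either way, and the median was -0.01. Hnrnp genes above 0 numbered 18 of 20, and 14 had groups that did not overlap, as did 8 of 11 Srsf genes, beside 37.2% of all genes. The labels do not tie replicate libraries to different animals, so these p-values measure the spread between libraries. The Hnrnp count moved with every library left out: it was 13 without EU library 5, beside 23.9% of all genes, 3 without EU library 3 or TRAP library 4, and 4 without EU library 4, TRAP library 3 or TRAP library 5, the shares of all genes in these 5 cases being 4.15% to 10.7%. The single Srsf call was lost without EU library 3 or 4 or TRAP library 3 or 4, and 3 were called without EU library 5.

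Hnrnpa0 had 115, 38.6 and 76.3 CPM in TRAP libraries 3 to 5, against 1.78, 1.22 and 4.45 CPM in EU libraries 3 to 5. Its log2 difference was 4.95 ± 0.65 (adjusted p = 0.00294), the largest of both families, and the lowest TRAP library was far above the highest EU library. Hnrnpa3, a relative of Hnrnpa2b1, had 141, 45.8 and 61.9 CPM in TRAP and 5.65, 4.55 and 15 CPM in EU libraries (3.30 ± 0.61, adjusted p = 0.00883), again without overlap.

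The other Hnrnp genes called higher in TRAP averaged 112 to 241 TPM over groups, and Hnrnph1 (175 TPM) and Hnrnpc (126 TPM), in the same range, were not called. Hnrnpa2b1 had 421, 285 and 262 CPM in TRAP and 49.4, 23.3 and 117 CPM in EU libraries (2.35 ± 0.54, adjusted p = 0.0189). Hnrnpk had 167, 503 and 345 CPM in TRAP libraries and 117, 110.1 and 128 CPM in EU libraries (1.51 ± 0.41, adjusted p = 0.0343). Each of these was higher in all 3 TRAP libraries than in any EU library, although library 3 came close for Hnrnpk. Hnrnpa1 (1.49), Hnrnpf (1.21) and Hnrnpm (1.21), a nuclear splicing regulator, had adjusted p of 0.0274, 0.0434 and 0.0457 and no overlap either.

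On the opposite side, Hnrnpul1, an hnRNP U-like protein known from the DNA damage response, had 9.94, 12.1 and 18.5 CPM in TRAP and 44.3, 70.1 and 58.4 CPM in EU libraries (-2.09 ± 0.42, adjusted p = 0.012). Srsf11 had 56.2, 68.9 and 109 CPM in TRAP and 193, 282 and 206 CPM in EU libraries (-1.54 ± 0.37, adjusted p = 0.0213). For both genes every TRAP library was below every EU library. The largest Srsf difference upward was that of Srsf1, an export adaptor and splicing activator, at 1.49, which did not pass the test.

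**Figure D2:**
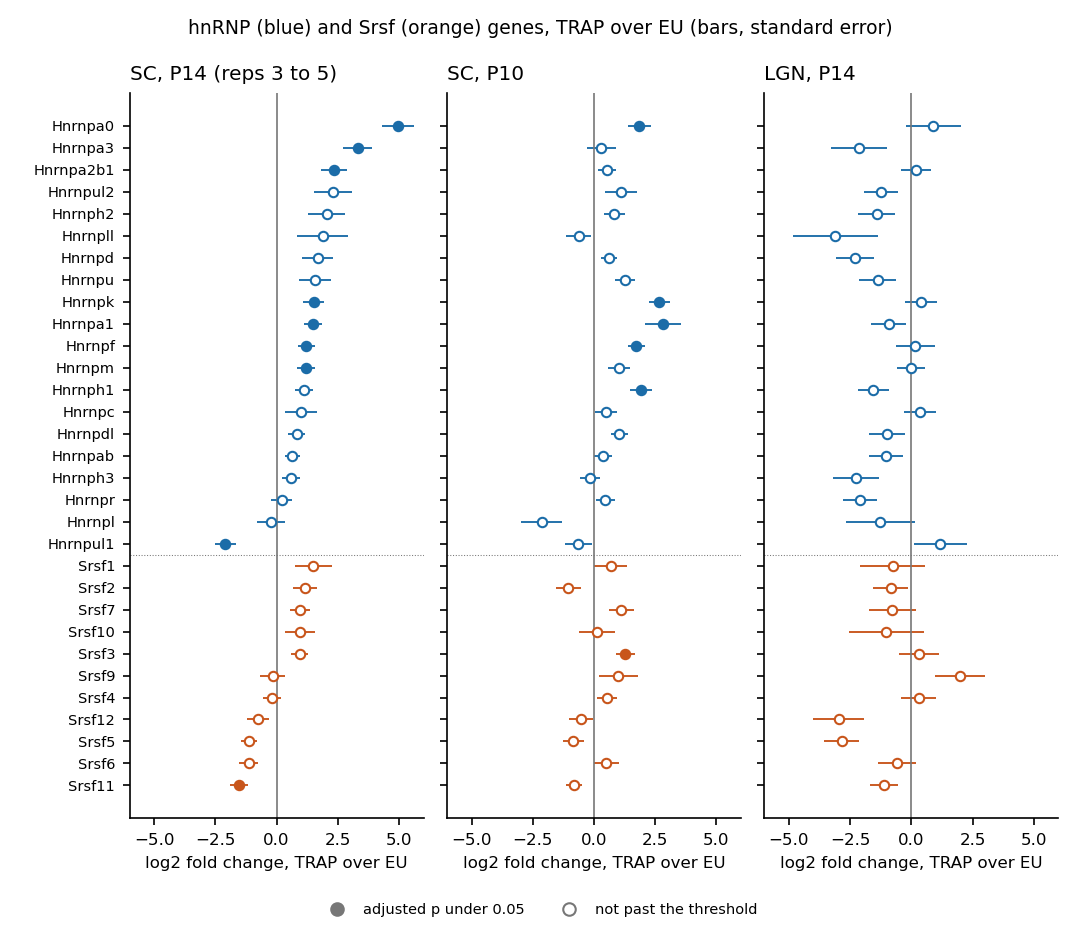
Log2 difference of TRAP over EU for each coding member, in SC at P14, SC at P10 and LGN at P14, with bars of 1 SE and filled points for adjusted p under 0.05. Hnrnpa0 leads at P14 with 4.95 and Hnrnpk and Hnrnpa1 at P10 with 2.67 and 2.81, while no member is called in LGN.

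The result belongs to replicates 3 to 5. With P14 SC libraries 1 and 2 in their place, a comparison added after seeing the data, 0 Hnrnp and 0 Srsf genes were called, beside 0.12% of all genes, and the Hnrnp median was -0.30. Hnrnpa0 then had 12.6 and 7.69 TPM in TRAP against 38.9 and 5.4 TPM in EU libraries, which overlap, and its log2 difference was -0.46. With all 5 libraries a group, 2 of 20 Hnrnp genes were called higher and 0 lower. Of the 11 Srsf genes Srsf11 was the only one called. Over all genes 8.76% were called either way, so these counts are near the share of all genes.

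**Figure D3:**
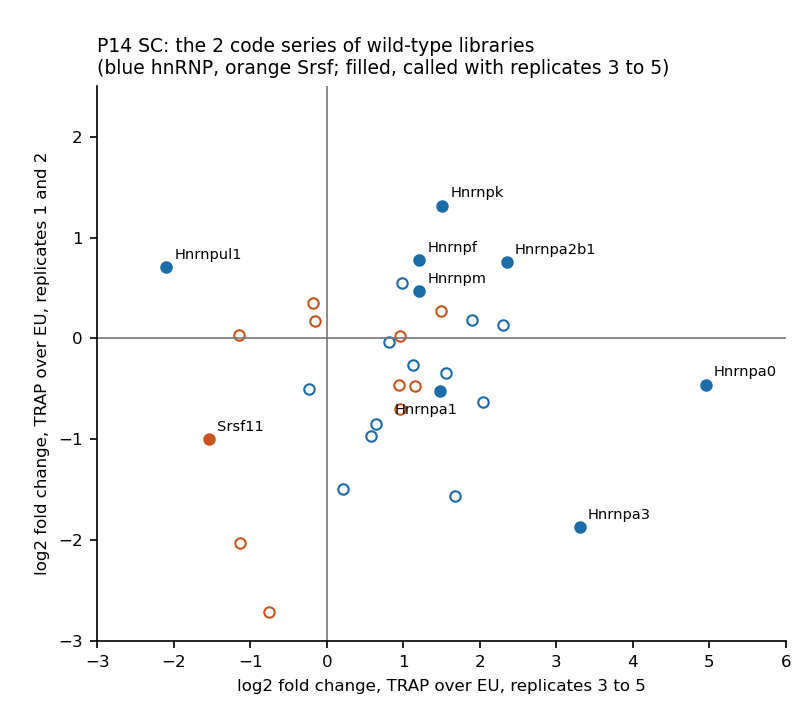
Log2 difference of TRAP over EU at P14 in SC for each member, from replicates 3 to 5 (horizontal axis) and from libraries 1 and 2 (vertical axis). The Hnrnp median is 1.35 on the horizontal and -0.30 on the vertical axis, and Hnrnpa0 lies at 4.95 and -0.46.

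At P10, where all libraries are of 1 title-code series, 5 Hnrnp genes were called higher in TRAP than in EU and 0 lower, with a median of 0.72 and 16 of 20 above 0. Of the Srsf genes 1 was called higher and 0 lower, with a median of 0.51. The Hnrnp count was 8 without TRAP library 1, beside 16.6% of all genes, 1 without EU library 1, beside 6.39%, and 3 without EU library 2 or 3, beside 10.2% and 9.59%. Across 15733 genes 6.38% were called higher, 11.1% lower and 17.4% either way, with a median of -0.08. The Srsf median turned to -0.44 and the Hnrnp median moved to 0.13 in the fit on log2(TPM + 1), where the median of all genes was -0.33.

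Hnrnpk had 352, 212 and 283 CPM in P10 TRAP libraries, against 29.9, 36.0 and 67.4 CPM in EU libraries (2.67 ± 0.42, adjusted p = 0.00428). It was the 1 member whose call at P10 held under every alternative and every library left out. Hnrnpf had 143, 93.2 and 151 CPM in TRAP and 36.2, 38.4 and 42.7 CPM in EU libraries (1.72 ± 0.35, adjusted p = 0.00945), and Hnrnph1 had 222, 115 and 132 CPM in TRAP and 23.0, 58.4 and 42.9 CPM in EU libraries (1.91 ± 0.44, adjusted p = 0.0153). All 3 genes separated the capture methods completely. At P10 the groups did not overlap for 9 of 20 Hnrnp and 2 of 11 Srsf genes, beside 38.9% of all genes.

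Hnrnpa0 was again higher, with 117, 234 and 106 CPM in TRAP and 24.5, 36.1 and 65.8 CPM in EU libraries (1.85 ± 0.48, adjusted p = 0.0242). Hnrnpa1 had 423, 377 and 2839.8 CPM in TRAP and 174, 177 and 169 CPM in EU libraries (2.81 ± 0.73, adjusted p = 0.0261), so its size rested on the third TRAP library, without which the difference was 1.37, and its call was lost without any 1 of the EU libraries. Srsf3, the smallest SR protein and an export adaptor, had 61.1, 68.3 and 89.9 CPM in TRAP and 19.4, 32.4 and 38.2 CPM in EU libraries (1.28 ± 0.38, adjusted p = 0.0434), without overlap. Its call was lost when any library but the first TRAP library was left out.

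Hnrnpl, which binds CA repeats, was the lowest member at P10, with 47.4, 10.7 and 2.57 CPM in TRAP and 128, 59.9 and 80.8 CPM in EU libraries. The log2 difference of -2.14 ± 0.82 did not pass the test (adjusted p = 0.0994), although the groups did not overlap. Hnrnpa0, Hnrnpa1, Hnrnpf and Hnrnpk were called at both ages, out of 9 members called at P14 and 6 at P10. The change of the TRAP to EU ratio between ages was tested directly and called for 0 of 18660 genes. For Hnrnpa0 the ratio at P14 exceeded that at P10 by 3.09 log2 units (unadjusted p = 0.00107, adjusted p = 0.362).

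Markers of other compartments moved with the capture method. Of 7 nuclear long noncoding RNAs 6 were lower in TRAP at P14 and 6 at P10, led by Meg3 (-7.45) at P14 and Snhg11 (-6.96) at P10. Their sum was 90.9 to 180 CPM in P14 TRAP and 11690 to 14620 CPM in EU libraries 3 to 5, and 39.8 to 99.97 CPM in P10 TRAP and 13430 to 18300 CPM in EU libraries. At P14 3 of 8 microglial markers were higher in TRAP and 0 of 10 oligodendrocyte markers were called, the oligodendrocyte list summing to 7885 to 24900 CPM in TRAP and 10580 to 16720 CPM in EU libraries. At P10 2 oligodendrocyte markers (Olig1, 2.40, and Olig2, 1.56), 1 of 8 astrocyte markers (Gja1, 6.45), 2 microglial markers and 1 of 6 endothelial markers were higher in TRAP, and 2 endothelial markers were lower. Their part in the Hnrnp values was not tested. In tissue RNA of this kind, fewer cells of a type and less RNA per cell cannot be told apart.

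Lists of other splicing genes at P14 are given beside the 5.73% of all genes called higher and 8.64% called lower. Of 20 snRNP core and Sm genes 0 were higher and 1 lower (Prpf8, -1.72), and of 13 U2-associated genes 0 were higher and 1 lower (Sf3b1, -1.54). Of 17 SR-related genes 0 were higher and 5 lower, among them Pnn (-2.49) and Luc7l3 (-2.02), and of 24 neuronal splicing regulators 0 were higher and 6 lower, among them Tia1 (-3.01) and Mbnl3 (-4.51). Of 9 kinases of SR proteins 1 was lower (Srpk3, -4.65), and of 22 hnRNP-like genes with other names (median 0.64) and 3 nuclear import receptors 0 were called.

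At P10 6.38% of all genes were called higher and 11.1% lower. The SR-related genes were called higher for 1 and lower for 5 of 17 (Acin1, -2.05, and Son, -2.01), and the neuronal regulators higher for 1 and lower for 6 of 24 (Tia1, -3.61, and Celf1, -1.72). The snRNP genes split into 3 higher and 2 lower, and the U2-associated genes into 2 and 2, with Sf3b5 at 1.84 and Sf3b1 at -3.30. The hnRNP-like genes gave 2 higher and 1 lower, with Cirbp, a cold-inducible RNA-binding protein, at 1.88 and Taf15 at -3.57. Tnpo3, the import receptor of SR proteins, was lower (-1.48), and 0 of 9 kinases were called.

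In LGN at P14 the same question was asked of 3 TRAP and 2 EU libraries, and 0 Hnrnp and 0 Srsf genes were called, beside 1.4% of all genes (1.17% lower). By the unadjusted p under 0.05 there were 4 Hnrnp and 2 Srsf genes, all lower in TRAP, beside 27.4% of all genes, and DESeq2 called 3 and 2, also lower, beside 20.5%. The medians were -1.14 for Hnrnp and -0.77 for Srsf genes, with -0.24 over all genes. Hnrnpll, an L-like hnRNP known from CD45 splicing in T cells, was lowest, with 1.20, 8.72 and 0 CPM in TRAP and 23.7 and 34.3 CPM in EU libraries (-3.12, adjusted p = 0.277). Srsf9, a short SR protein close to Srsf1, was highest, with 78.0, 11.6 and 78.2 CPM in TRAP and 13.2 and 15 CPM in EU libraries (1.98, adjusted p = 0.235), and these groups overlap. Summed TPM of the Hnrnp genes was 718, 2057 and 819 in LGN TRAP libraries and 3283 and 2606 in EU libraries, so only the second TRAP library came near the EU level. SC libraries 1 and 2 set against the LGN libraries gave 0 calls for both families with either capture, in edgeR and in DESeq2, with 0 members at an unadjusted p under 0.05. Of all genes edgeR called 0% and DESeq2 72 of 15448 in EU and 70 of 15551 in TRAP libraries.

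**Figure D4:**
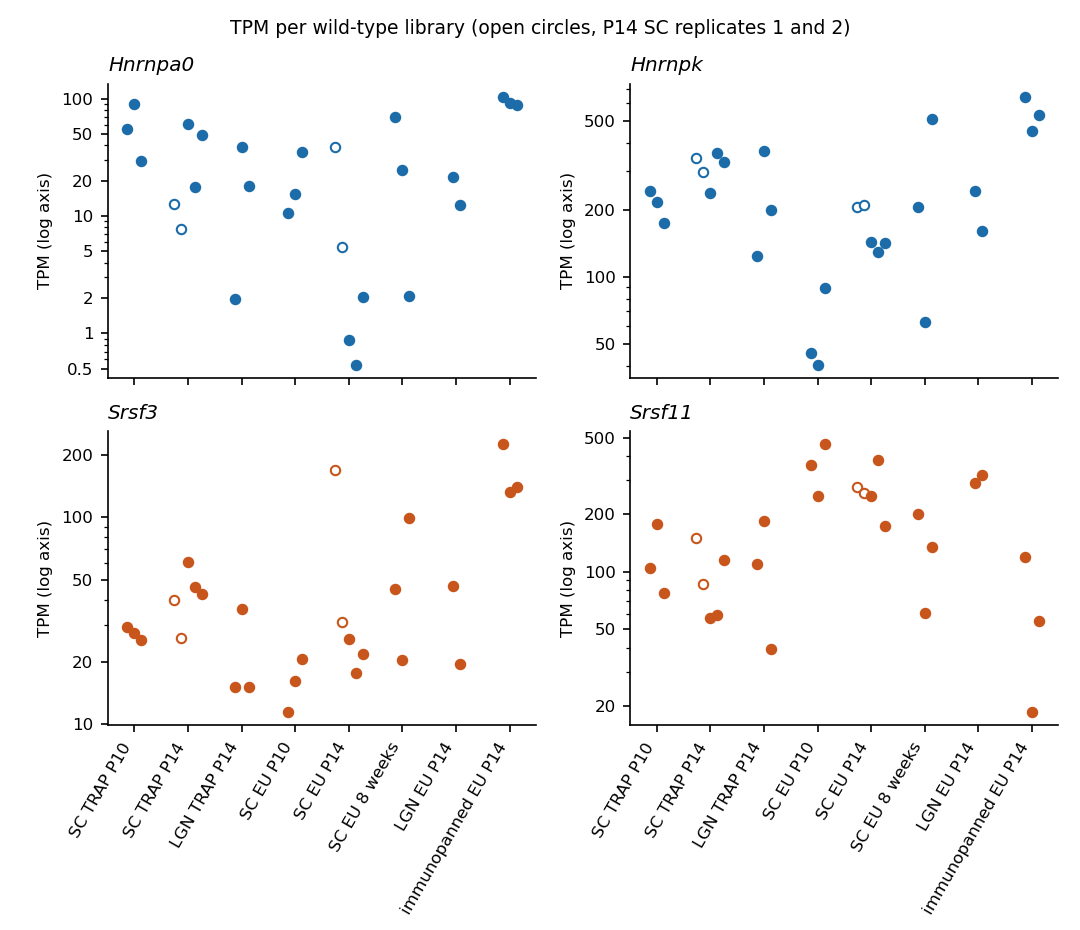
TPM of Hnrnpa0, Hnrnpk, Srsf3 and Srsf11 in each library of the 8 wild-type groups shown, on a log axis, with open circles for replicates 1 and 2 of the P14 SC groups. Hnrnpa0 in P14 SC EU libraries runs from 0.542 to 38.9 TPM, and Srsf11 in the same libraries only from 173 to 384 TPM.

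At P14 the EU libraries of SC, a target region of RGC axons, were also set against the EU libraries labelled immunopanned RGC. Of the Hnrnp genes 1 was called higher and 13 lower in SC, with a median of -3.04, and of the Srsf genes 1 was called higher and 7 lower, with a median of -2.14 (edgeR, n = 3 each). Across 15540 genes 11% were called higher, 11.4% lower and 22.4% either way, with a median of 0.11. Groups did not overlap for 17 of 20 Hnrnp and 9 of 11 Srsf genes, beside 46.8% of all genes. Without SC library 3 the counts of called genes were 5 Hnrnp and 5 Srsf, beside 5.6% of all genes, and without SC library 4 they were 8 and 5, beside 5.45%.

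Hnrnpa0 had 1.23, 0.830 and 3.19 CPM in SC EU libraries 3 to 5, against 208, 468 and 385 CPM in immunopanned EU libraries. The log2 difference was -7.66 ± 0.82 (adjusted p = 0.00208), the largest of the members. Hnrnpa3 had 3.89, 3.10 and 10.8 CPM in SC and 269, 519 and 498 CPM in immunopanned libraries (-6.18 ± 0.75, adjusted p = 0.00237). Hnrnpk, the most abundant member, had 80.8, 74.9 and 92.1 CPM in SC and 826, 1111 and 1050.3 CPM in immunopanned libraries (-3.59 ± 0.49, adjusted p = 0.00307). The libraries of each group were close to each other for Hnrnpk, with about an order of magnitude between groups.

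Srsf10, a splicing repressor when dephosphorylated, had 4.20, 2.49 and 3.03 CPM in SC and 76.6, 122 and 125 CPM in immunopanned libraries (-5.06 ± 0.63, adjusted p = 0.00244). Srsf3 had 34.6, 21.7 and 36.4 CPM in SC and 446, 466 and 567 CPM in immunopanned libraries (-3.99 ± 0.51, adjusted p = 0.00266). Srsf2 had 14.5, 15.1 and 14.5 CPM in SC and 573, 163 and 187 CPM in immunopanned libraries (-4.39 ± 0.67, adjusted p = 0.00426). No SC library reached the immunopanned range for these genes, and the first immunopanned library was high only for Srsf2. Srsf1 (-5.43, adjusted p = 0.0061) and Srsf7 (-3.60, adjusted p = 0.00733), both shuttling proteins, were also lower.

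Against this direction, Hnrnpul1 had 30.5, 47.7 and 41.9 CPM in SC and 7.94, 3.19 and 6.78 CPM in immunopanned libraries (2.74 ± 0.75, adjusted p = 0.0296). Srsf9 had 32.9, 45.3 and 12.4 CPM in SC and 2.04, 2.06 and 0.616 CPM in immunopanned libraries (4.26 ± 1.02, adjusted p = 0.0204). Both separated the groups fully. Hnrnpl had 15.3, 22.8 and 52.8 CPM in SC and 6.16, 0.465 and 0.137 CPM in immunopanned libraries (3.73 ± 1.41, adjusted p = 0.0875), which did not pass. Hnrnpul1 thus appears in both comparisons, at -2.09 for TRAP over EU and 2.74 for SC over immunopanned EU, and these share SC EU libraries 3 to 5.

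**Figure D5:**
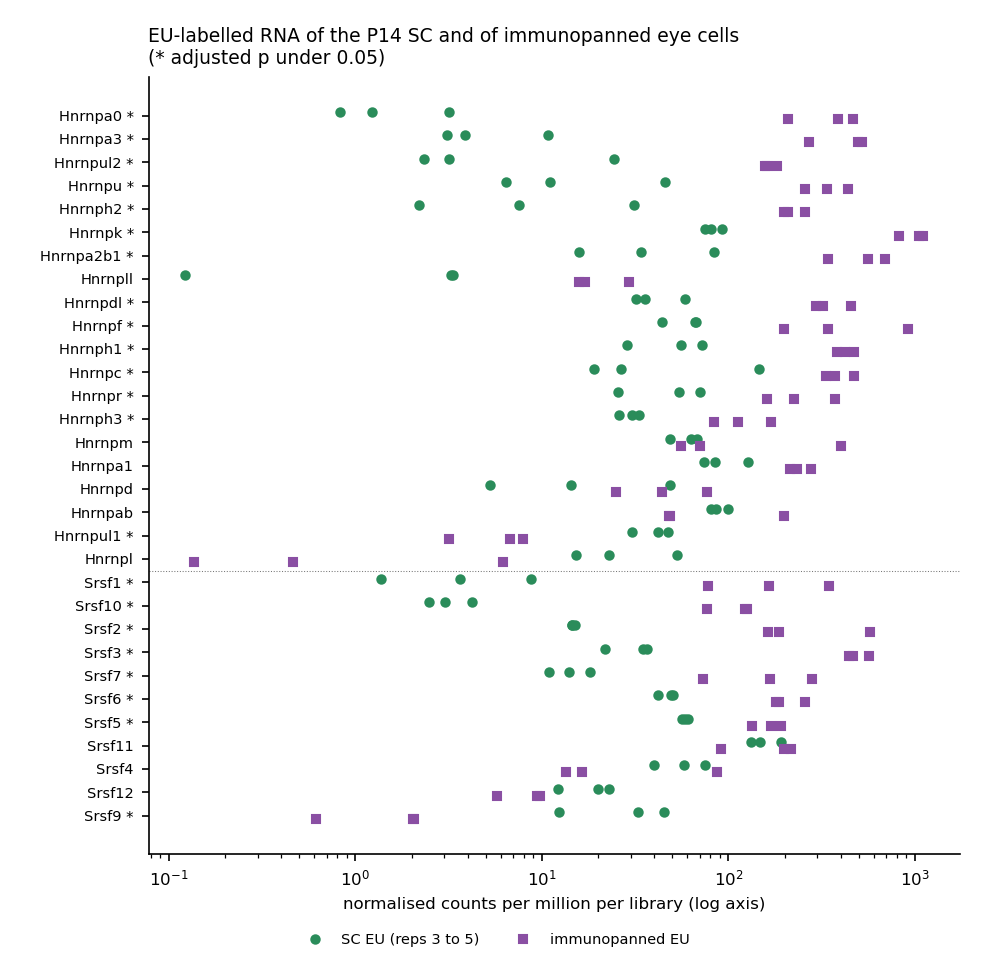
Normalised CPM of each coding member in SC EU libraries 3 to 5 (circles) and immunopanned RGC EU libraries (squares) at P14, on a log axis, with an asterisk at adjusted p under 0.05. Of the Hnrnp genes 13 and of the Srsf genes 7 are lower in SC, while Hnrnpul1 and Srsf9 are higher.

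The 2 groups differ in cell content as well. All 10 oligodendrocyte markers were higher in SC, and all 10 rod markers and 5 of 6 lens markers were lower, with Mobp, Mog, Mag, Olig1, Olig2 and Mal at 0 in every immunopanned EU library. Summed RGC markers were at 192 to 564 CPM in immunopanned EU libraries, below the 1919 to 2907 CPM in SC EU libraries 3 to 5. Single markers of that list did not all follow the sum. Isl1 went the other way, with 150, 20.9 and 23.1 CPM in immunopanned and 0 CPM in each of these SC libraries. Rbpms (1.65, 2.69 and 0 against 0.64, 1.66 and 4.89 CPM) and Pou4f2 (0, 10.3 and 0 against 0, 0 and 0.7 CPM) overlapped. The part of cell content in the Hnrnp and Srsf values was not tested. With P14 SC libraries 1 and 2 in place of 3 to 5, added after seeing the data, 2 Hnrnp genes (Hnrnpa0, -4.38, and Hnrnpk, -3.69) and 3 Srsf genes (Srsf1, -4.05, Srsf3, -3.32, and Srsf10, -4.88) were called, all lower in SC, beside 3.64% of all genes. These 5 calls held under every alternative. With FACS-sorted eye cells in place of the immunopanned EU libraries, 12 Hnrnp and 7 Srsf genes were called, beside 35.5% of all genes.

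The other splicing lists are given beside the 11% of all genes called higher and 11.4% called lower in SC. The SR-related genes gave 3 higher and 3 lower of 17 in SC, with Scaf1 at 4.56 and Tra2b, a splicing activator, at -3.98. The snRNP genes gave 0 higher and 4 lower of 20 (Snrpd1, -2.80, and Snrpe, -2.89), the U2-associated genes 0 and 1 of 13, and the hnRNP-like genes 0 and 6 of 22 (Rbmx, -4.65, and Tardbp, -3.07). The kinases gave 0 and 2 of 9, the SR protein kinases Clk4 (-6.41) and Clk1 (-6.93). Neuronal splicing regulators gave 9 higher and 3 lower of 24, led by Elavl3 (4.82) and Nova2 (5.87). Of the 3 import receptors Tnpo1, which carries M9 signals such as that of hnRNP A1, was lower (-6.01) and its close relative Tnpo2 higher (6.87), and whether reads were shared between these similar genes was not measured.

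Between ages, EU-labelled RNA of SC at P14 differed from P10 in 1 gene of each family, both lower, beside 2.03% of all genes (0.91% higher and 1.12% lower). Hnrnpa0 had 1.70, 1.19 and 4.42 CPM at P14 (libraries 3 to 5) and 22.9, 35.1 and 64.9 CPM at P10 (-4.08 ± 0.65, adjusted p = 0.0143). Srsf2 had 20.1, 21.7 and 20.1 CPM at P14 and 196, 51.3 and 102 CPM at P10 (-2.50 ± 0.45, adjusted p = 0.0237). The ages did not overlap for either gene, as for 25.7% of all genes, while the family medians were -0.21 and -0.06. Without P14 library 5, 8 Hnrnp and 2 Srsf genes were called, beside 12.6% of all genes. Without P14 library 3 or P10 library 3 there were 0 of either, and the Srsf call was also lost without P14 library 4 or P10 library 1. Neither gene was called with all 5 P14 libraries or with libraries 1 and 2, in which Hnrnpa0 reached 38.9 TPM. None of the 7 splicing lists had a called gene. Of the cell markers 5 of 10 oligodendrocyte genes (Mobp, 3.24, and Mbp, 3.12) and 2 of 8 astrocyte genes were higher at P14, and their part in the values of Hnrnpa0 and Srsf2 was not tested.

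In the TRAP libraries 0 members differed between P14 and P10 in edgeR, where 0 genes in all were called, with 6 Hnrnp genes and 1 Srsf gene at an unadjusted p under 0.05, beside 14.4% of all genes, and 1 Hnrnp gene called by DESeq2, beside 4.82%. EU RNA with a 4-day chase gave 0 member calls against P10 in edgeR, beside 0.00597% of all genes, and in DESeq2, beside 5.87%. At an unadjusted p under 0.05 in edgeR there were 6 Hnrnp and 0 Srsf genes, beside 18.1% of all genes. Hnrnpk had 93.3, 91.7 and 131 CPM with the chase and 33.4, 41.3 and 75.4 CPM at P10, without overlap, as for 25.6% of all genes. At 8 weeks 0 members were called against P14 EU libraries 3 to 5, beside 0% of all genes, with 4 Hnrnp and 3 Srsf genes at an unadjusted p under 0.05, beside 9.14%, and 2 and 1 called by DESeq2, beside 4.74%.

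The 8-week group was uneven. Hnrnpa0 had 123, 70.5 and 4.33 CPM at 8 weeks and 1.54, 1.08 and 4.04 CPM at P14, and Srsf1 had 79.0, 53.9 and 5.91 CPM at 8 weeks and 4.55, 1.79 and 11.0 CPM at P14. The third 8-week library was near the P14 level for both, and the first 2 were well above it. Without that library 4 of 20 Hnrnp genes were called higher (Hnrnpa0, 5.44, Hnrnpa3, 4.61, Hnrnpul2, 3.02, and Hnrnpu, 2.77). Srsf1 (3.52), Srsf10 (2.27) and Srsf2 (2.24) were called higher and Srsf4 lower (-1.88). Of all genes 9.49% were called higher and 8.58% lower, 18.1% either way. This library was singled out with its values of Hnrnpa0 and Srsf1 known, so these calls do not test the members. The third library had 3949 CPM of nuclear long noncoding RNAs and 0.905% mitochondrial counts, against 14580 and 9708 CPM and 21.1% and 33.8% in the other 2, and the part of these differences was not tested.

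Axotomized sarm1ko libraries with a 7-day chase, labelled as lacking Sarm1, a driver of axon degeneration, were set against intact wild-type P14 EU libraries 3 to 5. Genotype, axotomy and chase time cannot be told apart in this contrast. Of the Hnrnp genes 7 were called higher and 0 lower, with a median of 0.94, and of the Srsf genes 1 higher and 1 lower, with a median of 0.27. Across 17171 genes 37.6% were called, 16.8% higher and 20.8% lower, with a median of 0.16. The Hnrnp count was 12 of 20 without wild-type library 5, beside 56.5% of all genes, 4 without wild-type library 4 (28.9%) and 2 without wild-type library 3 (20.8%). Leaving out sarm1ko library 1, 2 or 3 gave 2, 3 and 1, beside 14.6%, 26.4% and 15.8%. The Srsf count was 5 without wild-type library 5, and 1 without wild-type library 3 or any sarm1ko library.

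Hnrnpa3 had 38.5, 37.5 and 45.8 CPM in sarm1ko and 3.99, 3.23 and 10.3 CPM in wild-type libraries (2.79 ± 0.50, adjusted p = 0.00354). Hnrnpa0 had 9.33, 11.7 and 10.6 CPM in sarm1ko and 1.26, 0.865 and 3.07 CPM in wild-type libraries (2.61 ± 0.64, adjusted p = 0.0112). Hnrnpul2, a U-like hnRNP, had 63.2, 55.5 and 63.7 CPM in sarm1ko and 3.26, 2.43 and 23.5 CPM in wild-type libraries (2.65 ± 0.75, adjusted p = 0.0206). The sarm1ko libraries were alike and all above the wild-type ones, whose replicate 5 was the highest each time. Hnrnpu (2.13), Hnrnph2 (2.03), Hnrnpr (1.08) and Hnrnph1 (0.98) were the other 4.

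Srsf1 had 18.7, 15.8 and 18.7 CPM in sarm1ko and 3.70, 1.43 and 8.38 CPM in wild-type libraries (1.98 ± 0.61, adjusted p = 0.0287). Srsf4, a long SR protein with an extended RS domain, had 16.5, 21.7 and 19.0 CPM in sarm1ko and 59.1, 78.4 and 38.4 CPM in wild-type libraries (-1.62 ± 0.36, adjusted p = 0.00769). Groups did not overlap for either gene, as for 57.8% of all genes. With all 5 wild-type libraries, or with libraries 1 and 2, 0 members were called, beside 5.62% and 0.707% of all genes. The ribosomal RNA gene CT010467.1 took 27.4% to 48.5% of counts in sarm1ko and 4.54% to 33.7% in the wild-type libraries. Leaving it and mitochondrial genes out reduced the Hnrnp calls to 4, beside 36.0% of all genes.

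In the same contrast the lists are given beside the 16.8% of all genes called higher and 20.8% called lower. The snRNP genes were lower for 7 of 20 (Snrpd2, -2.46, and Snrpf, -2.75) and the U2-associated genes for 5 of 13 (Sf3b5, -2.40, and Puf60, -1.78), with 0 higher in both lists. SR-related genes split into 7 higher and 2 lower of 17, kinases into 3 and 2 of 9 (Clk4, 2.83, and Clk1, 2.66), hnRNP-like genes into 3 and 4 of 22, and neuronal regulators into 4 and 7 of 24. Tnpo1 was higher (2.63). RGC markers were lower for 3 of 9, with summed levels of 337 to 1161 CPM in sarm1ko and 1919 to 2907 CPM in wild-type libraries, oligodendrocyte markers were higher for 2 and lower for 5 of 10, and 4 of 8 microglial markers were lower. Nuclear long noncoding RNAs were higher for 4 and lower for 1 of 7 (Neat1, 3.32, and Malat1, 2.75). Mitochondrial genes took 13.1% to 31.4% of counts in sarm1ko and 0.407% to 1.76% in wild-type libraries. Their part in the values of the members was not tested.

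Libraries labelled fmr1ko were compared with wild type within each kind of library. FMRP, the product of Fmr1, is a translational regulator that binds polyribosomal mRNA. In SC EU libraries 0 Hnrnp and 0 Srsf genes were called in edgeR, beside 1.11% of all genes (0.29% lower), while 9 and 2 had an unadjusted p under 0.05, beside 23.6% of all genes, and DESeq2 called 4 and 0, beside 14.3%. Hnrnpa0 had 28.4, 98.9 and 6.50 CPM in fmr1ko and 1.52, 1.07 and 3.92 CPM in wild-type libraries 3 to 5 (4.37, adjusted p = 0.0576), without overlap, as for 32.1% of all genes. Leaving out wild-type library 5 gave 8 Hnrnp calls and 1 Srsf call, beside 19.9% of all genes, and leaving out fmr1ko library 3 gave 1 Hnrnp call, beside 0.337%. Mitochondrial genes took 9.58% to 40% of counts in fmr1ko and 0.407% to 1.76% in these wild-type libraries, and CT010467.1 0.0764% to 0.634% in fmr1ko and 4.54% to 33.7% in wild type, and their part was not tested. The wild-type libraries are those of the 8-week, sarm1ko, age, immunopanned and P14 TRAP comparisons, so the low Hnrnpa0 of EU libraries 3 to 5 enters all of them.

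In SC TRAP libraries 0 members were called in edgeR, beside 0% of all genes, while 2 Hnrnp and 0 Srsf genes had an unadjusted p under 0.05, beside 17.9% of all genes, and DESeq2 called 2 and 0, beside 15.1%. Hnrnpl had 3.21, 6.85 and 4.83 CPM in fmr1ko and 13.8, 52.2 and 57.3 CPM in wild-type libraries (-3.05, adjusted p = 0.0912), without overlap, as for 29.4% of all genes. Leaving out the second fmr1ko library, the one with rod markers, 5 Hnrnp genes were called lower (Hnrnpl, -3.38, Hnrnpa2b1, -2.43, Hnrnpf, -2.38, Hnrnpab, -1.93, and Hnrnpa1, -1.62) and Srsf7 lower (-3.63), beside 12.9% of all genes. The 2 libraries that remain are those with nuclear long noncoding RNAs at the level of EU libraries, and the part of this in the values was not tested. Hnrnpf shows the weight of that library, with 32.3, 1013 and 53.7 CPM in fmr1ko and 176, 204 and 281 CPM in wild-type libraries.

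In FACS-sorted eye cells 0 members were called in edgeR, beside 0.0593% of all genes (0.0528% higher and 0.00659% lower), while 5 Hnrnp genes and 1 Srsf gene had an unadjusted p under 0.05, beside 12.7% of all genes, and DESeq2 called 2 and 1, beside 7.23%. Srsf2 had 165, 226 and 196 CPM in fmr1ko and 79.4, 85.0 and 75.5 CPM in wild-type cells (1.29, adjusted p = 0.0964), and Hnrnpl had 38.4, 67.8 and 63.4 CPM in fmr1ko and 19.7, 25.2 and 23.5 CPM in wild-type cells (1.31, adjusted p = 0.154). Neither gene overlapped between groups, as for 22.3% of all genes, and neither passed the test.

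The difference between the labelled fmr1ko effect in TRAP and that in EU libraries was tested as an interaction and called for 5.92% of 18561 genes. For Hnrnpab, a shuttling A/B-type hnRNP, the effect was -1.69 in TRAP and 0.69 in EU libraries, a difference of -2.38 ± 0.53 (adjusted p = 0.0299). For Hnrnpa0 it was -0.22 in TRAP and 4.36 in EU libraries, a difference of -4.58 ± 1.19 (adjusted p = 0.0445). No other member was called, and both values rest on fmr1ko TRAP libraries that stand apart, library 2 by its rod markers and libraries 1 and 3 by nuclear long noncoding RNAs at the level of EU libraries.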

How the data were processed

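Polyadenylated RNA of 48 mouse libraries in 15 groups was measured by RNA-seq. The authors deposited a table of estimated counts and a table of TPM for 54331 Ensembl genes; Salmon and mm10 are named, without versions, in the submitters' processing notes. No source used here gives the annotation release, strand setting or read filters. IDs were named from GENCODE M21 (54097 matched).

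The deposited estimated counts were rounded and tested in R 4.3.3 with edgeR 4.0.16 (filterByExpr, TMM, quasi-likelihood F test, Benjamini-Hochberg adjustment over all tested genes, 0.05), 1 fit per comparison, over the compared groups only. DESeq2 1.42.0, limma 3.58.1 on log2(TPM + 1) of the deposited TPM, other scaling and filtering, and libraries left out were alternatives. The scripts were tested on simulated data. Depth was 2558141 to 48263706 counts, and low members have the least precision.

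Named members are the 3 with the smallest adjusted p per family and comparison among those called, the extremes of each comparison, and the 3 with the highest mean TPM per family; others were named after their values were seen. The members and lists were chosen with earlier results of these data known.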

Additional observations from a re-analysis of the deposited data

Results flagged for a closer look

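Among the wild-type P14 SC groups, the only ones with 5 libraries, 60 sets of 5 TPM values were checked for a library far from the others and 8 were found. The sets of a group share its libraries and join the 2 title-code series, so the number was not set against a chance rate. EU library 1, the shallowest of all, was high for 5 genes: Hnrnpa0 (38.9 TPM), Hnrnpa3 (163 TPM), Hnrnpr (129 TPM), Srsf1 (68.0 TPM) and Srsf3 (170 TPM). EU library 2 was high for Srsf6 (85.9 TPM). In the TRAP group, library 5 was apart for Hnrnpf (240 TPM) and library 3 for Srsf2 (156 TPM).

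The labelled fmr1ko effect differed between TRAP and EU libraries, by a test of the difference itself, for Hnrnpa0 (-4.58) and Hnrnpab (-2.38). Hnrnpab had 72.9, 94.5 and 47.1 CPM in fmr1ko and 260.0, 235 and 177 CPM in wild-type TRAP libraries, and 174, 163 and 205 CPM in fmr1ko and 124, 104 and 105 CPM in wild-type EU libraries, so neither pair of groups overlapped.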

How the results depend on the processing

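Counts of called members are given as Hnrnp, then Srsf, out of 20 and 11 genes. Percentages beside them are the share of all tested genes called in the same setting. For TRAP over EU in SC at P14 (8 and 1, 14.4%), the Hnrnp count was 13 with no filter (13.4%), 2 with all 5 libraries (8.76%) and 0 with libraries 1 and 2 (0.12%). The Srsf count was 2 with RLE scaling or without CT010467.1 and mitochondrial genes (14.3% each). It was 3 with DESeq2 (23.6%) or limma (16.6%) and 0 with libraries 1 and 2. Leaving out libraries gave 3 to 13 and 0 to 3 (4.15% to 23.9%). At P10 (5 and 1, 17.4%) the Hnrnp count was 8 with DESeq2 (25.0%) and 3 with limma (19.4%). There, leaving out libraries gave 1 to 8 and 0 to 1 (6.39% to 16.6%). In LGN (0 and 0, 1.4%) DESeq2 gave 3 and 2 (20.5%), limma 1 and 2 (14.8%), and RLE scaling (4.21%) or no filter (8.87%) 1 Srsf gene. For SC over immunopanned EU (14 and 8, 22.4%), libraries 1 and 2 gave 2 and 3 (3.64%), and leaving out libraries 5 to 14 and 5 to 8 (5.45% to 24.6%).

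For P14 over P10 in EU libraries (1 and 1, 2.03%), no filter gave 4 Hnrnp genes (4.17%) and DESeq2 5 (8.5%). All 5 libraries (0.127%) or libraries 1 and 2 (0.0482%) gave 0 and 0, and leaving out libraries 0 to 8 and 0 to 2 (0.162% to 12.6%). In TRAP libraries (0 and 0, 0%) no filter gave 2 Hnrnp genes (3.39%) and DESeq2 1 (4.82%). At 8 weeks (0 and 0, 0%) no filter gave 2 Hnrnp genes (1.82%), DESeq2 2 and 1 (4.74%), and leaving out libraries 0 to 4 and 0 to 4 (0% to 18.1%). For sarm1ko (7 and 2, 37.6%), limma (32.3%) or leaving out CT010467.1 and mitochondrial genes (36.0%) gave 4 Hnrnp genes. All 5 libraries (5.62%) or libraries 1 and 2 (0.707%) gave 0 and 0, and leaving out libraries 1 to 12 and 1 to 5 (14.6% to 56.5%). For fmr1ko EU libraries (0 and 0, 1.11%) no filter gave 7 Hnrnp genes (7.01%), DESeq2 4 (14.3%) and limma 1 (3.01%). Leaving out libraries gave 0 to 8 and 0 to 1 there (0% to 19.9%). DESeq2 gave 2 Hnrnp genes in fmr1ko TRAP libraries (15.1%), where leaving out libraries gave 0 to 5 and 0 to 1 (0% to 12.9%), and 2 and 1 in FACS cells (7.23%).

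With libraries 1 and 2 the sign turned for TRAP over EU in Hnrnpa0 (-0.46), Hnrnpul1 (0.71), Hnrnpa1 (-0.53) and Hnrnpa3 (-1.87), and for sarm1ko in Hnrnpa0 (-0.63), Hnrnph1 (-0.72), Hnrnpa3 (-0.56) and Hnrnpr (-0.06), the last also with limma (-0.04). The causes were not tested. Of 304 values of named members with a library left out, 195 kept direction and call, 108 kept direction but lost the call, 1 gained it and 0 turned sign, and of 412 under the other alternatives these numbers were 312, 87, 4 and 9.

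In no comparison with 3 pairs was every same-number correlation over 0.1, so the numbers in the title codes were not taken to pair libraries. SC over LGN has only 2 pairs, with correlations of 0.317 in EU and 0.408 and 0.357 in TRAP libraries, where the block called 80 and 46 genes in all but 0 members. A replicate block gave 12 and 2 for TRAP over EU at P14 (15.9%), 3 and 0 at P10 (8.4%) and 13 and 6 for SC over immunopanned (16.6%). It gave 3 and 1 for P14 over P10 in EU libraries (3.87%) and 10 and 2 for sarm1ko (40.4%), with 0 members in the other comparisons (0% to 2.92%).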
